A study of Danio rerio with 4 samples.

Results

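A list of 40 genes of the G2 phase and of mitosis was followed in cardiac endothelial cells of regenerating zebrafish hearts. The genes were listed by symbol, and 39 of the 40 were matched to 1 of the 32520 Ensembl genes counted in each library. The remaining gene, *incenp*, was not matched and is named only. The cells were *kdrl*-EGFP-positive cells sorted from ventricles at 7 days post-amputation (dpa), and RNA-seq was performed on 2 libraries of each group, which the submitters describe as biological replicates. The methods describe hearts of several adult fish pooled for sorting, so a library averages over fish. Control fish (CtrlK) and DNK fish both carried the transgene *ubi:loxp-DsRed-STOP-loxp-DN-xBrg1*, a silent cassette for a dominant-negative *Xenopus* Brg1, along with the endothelial reporter *kdrl-eGFP*. Both groups were given 4-hydroxytamoxifen (4-HT), starting 3 days ahead of the amputation as the labels state. DNK fish alone also carried *kdrl:CreER*, a recombinase that the *kdrl* promoter expresses in endothelium including the endocardium and that 4-HT activates to switch on DN-xBrg1. No group without 4-HT, without the cassette or without amputation was part of these libraries, so CreER activity and DN-xBrg1 expression cannot be told apart.

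Entry into mitosis is driven by Cdk1 bound to B-type cyclins. Condensins and topoisomerase II then compact and untangle the chromosomes, kinetochores attach them to the spindle, and the spindle checkpoint delays anaphase until all are attached. The anaphase-promoting complex then marks cyclins and securin for destruction, separase frees the sister chromatids, and the central spindle guides cytokinesis. Most of these genes are transcribed in G2 and mitosis under FoxM1 and Myb complexes, as described in mammalian cells, and are nearly silent in resting cells, so in bulk RNA their levels depend on how many cells divide. In bulk samples such as these, fewer dividing cells and less RNA per dividing cell cannot be told apart.

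The libraries held between 25189862 and 28770727 counted reads, and 3 reads, taken as the smallest detectable level, equaled 0.103 to 0.126 CPM (counts per 1000000, scaled by the TMM factors of edgeR). All 12 matched endothelial marker genes had reads in every library and together took 6404 to 7071 RPM (reads per 1000000 counted in that library). Against 4.22% of all tested genes called higher in DNK and 4.23% lower, 1 of the 12 was called higher and 3 lower. Among these, *kdrl*, the gene whose promoter drives both EGFP and CreER, was lower in DNK by 0.47 on the log2 scale (log2 fold change -0.47, standard error 0.07, adjusted p = 0.011, edgeR). The call was lost without CtrlK2 (adjusted p = 0.056, edgeR). The mitotic genes were scarce in every library. Together the 39 genes had 4912 and 5850 reads in the CtrlK libraries and 4227 and 4732 in the DNK libraries. Most of these reads belonged to 1 gene, *kif23*, which took 57.9% to 72.2% of them. Whether all of these reads came from *kif23* transcripts was not tested, since the files hold counts only. Apart from *kif23* and *cdc25b*, which stood far above the others and were set apart after the counts were seen, no gene had more than 138 reads in any library. For those 37 genes, the median was 36 and 33 reads in the CtrlK libraries and 12 and 21 in the DNK libraries. In each CtrlK library 1 of these genes was at 0 reads, whereas 11 were at 0 in DNK1 and 7 in DNK2. Reads were not divided by transcript length, so these numbers do not rank the genes by level.

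**Figure D1:**
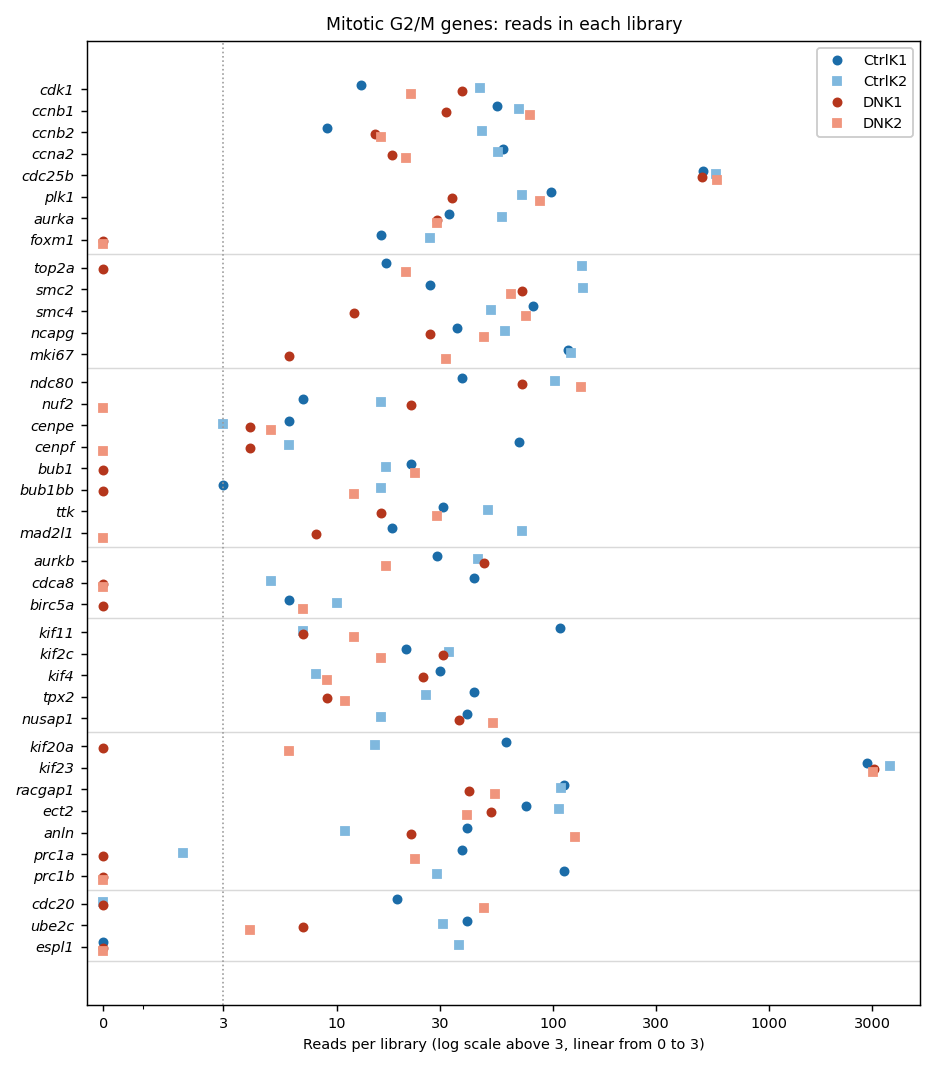
Reads per library (x axis, log scale above 3 reads, linear below) for the 39 matched mitotic genes (rows, grouped by role from mitotic entry at the top to anaphase at the bottom), with 1 point per library. *kif23* (2843 to 3625 reads) and *cdc25b* (489 to 575) stand apart from the others, and most points at 0 reads are DNK libraries.

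To find whether the mitotic genes differed between the groups, DNK was compared with CtrlK over all genes with edgeR's quasi-likelihood test (two-sided, Benjamini-Hochberg adjustment over 17151 tested genes). Of the 39 genes, 34 had enough reads to be tested, and *cenpe*, *cenpf*, *cdca8*, *birc5a* and *espl1* did not. At an adjusted p under 0.05, 1 mitotic gene was lower in DNK, *prc1b*, and 0 were higher. Of all tested genes, 4.23% were called lower and 4.22% higher, 8.45% in all, so the single call was no larger a share than the background. Among the 4912 tested genes in the level range of the scarce members, the shares were 2.54% and 1.55%, or 4.09% in all. Without adjustment, 5 of the 34 mitotic genes were lower and 0 higher at p under 0.05, against 12.6% and 11.3% of all tested genes and 10.9% and 6.27% in the level range. Of the 5 genes lower without adjustment, *prc1b*, *foxm1* and *ube2c* had enough reads to be tested only through CtrlK. Their direction, and that of the single call, thus followed from how they came to be tested. How many background genes were tested in this way was not counted, so these numbers and shares are not a like comparison. DESeq2, the tool of the study, called 3 lower, *prc1b*, *mki67* and *foxm1*, and 0 higher, with the same limit for *prc1b* and *foxm1*. It was run on the genes tested here, without the study's FPKM filter, so these are not the study's own calls. It called 8.35% of all tested genes lower and 7.41% higher, and 7.02% and 3.97% in the level range, so its 3 calls were also close to the background.

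Although few single genes passed the test, the signs were uneven. The log2 fold change was negative for 30 of the 34 tested genes (88.2%), against 51.7% of all tested genes and 56.3% of those in the same level range. Of the 34, *prc1b*, *foxm1*, *mad2l1*, *kif20a* and *ube2c* had fewer than 10 reads in both DNK libraries. They had enough reads to be tested only through CtrlK, so their negative sign followed from how they passed the filter. Over all 39 matched genes, fitted without a filter on low reads, 35 were negative and 4 positive. With libraries scaled by total counts only, 29 of the 34 were negative, and with the replicate block 28. The number was 28 of 35 without CtrlK1, 28 of 36 without CtrlK2, 27 of 37 without DNK1 and 31 of 37 without DNK2. For 18 of the 34 genes the sign turned when some library was left out. The median was -0.71 for the 34 genes, against -0.02 for all tested genes and -0.19 for those in the level range. With genes at 0 in both DNK libraries set to the bound that 3 reads per library give, the median remained at -0.71. This step could not move the median, because the genes it changed, *prc1b* and *foxm1*, still lay below it at their bounds. Among the 18 members with at least 10 reads in every library, 15 were negative and 3 positive. Their median was -0.30, against -0.02 for all genes under that filter. The latter span all levels, and no median in the level range was taken under that filter. Both DNK libraries lay below both CtrlK libraries, in CPM, for 15 of the 39 genes and above both for 0. Of all genes with reads, 24.4% lay below and 21.9% above, and of all tested genes 28.6% and 26.9%. In the level range, 1470 of the 4912 tested genes lay below and 1081 above. These counts describe the list and are not a test of it, because all genes were measured in the same 4 libraries. The precision for a single gene was low. The 95% interval of the log2 fold change included -1 for 29 of the 34 genes, and for 19 of them it included both -1 and 1. Leaving out DNK2 moved the median to -1.59, and leaving out any other library gave -0.90 to -0.61.

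**Figure D2:**
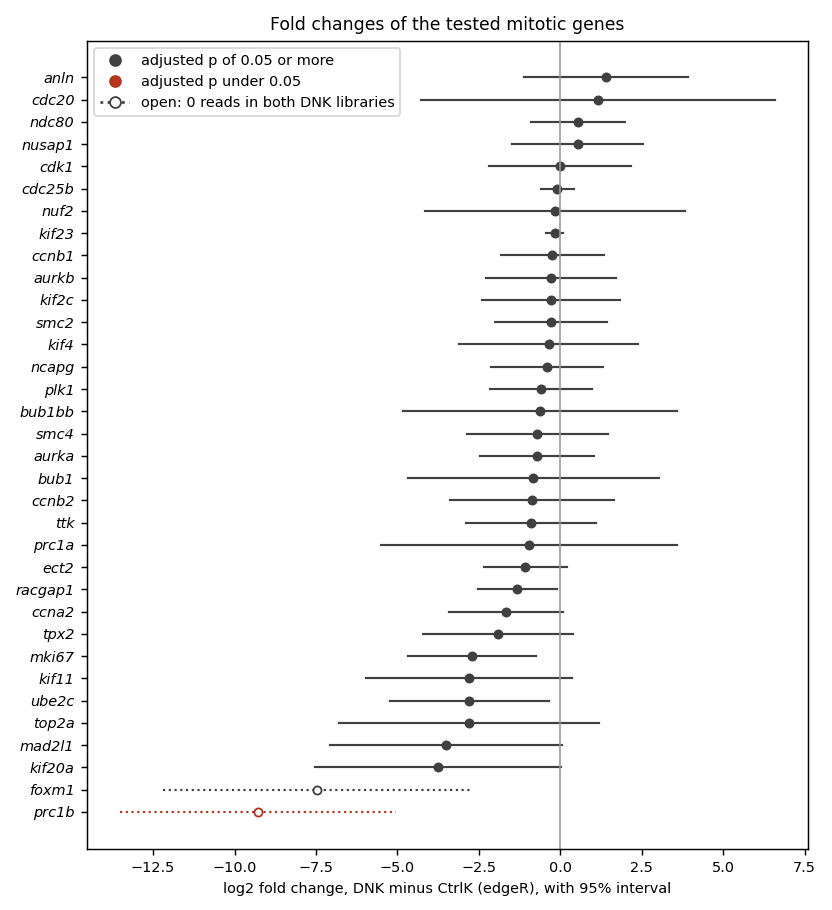
Log2 fold change of DNK minus CtrlK (x axis, edgeR) with its 95% interval for the 34 tested mitotic genes (rows, in order of fold change). Of these, 30 lie below 0, only *prc1b* (red) has an adjusted p under 0.05, and the open points, *prc1b* and *foxm1*, had 0 reads in both DNK libraries, so that the size of their fold change is not defined.

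Among the genes of mitotic entry, the kinase gene *cdk1* had 13 reads in CtrlK1, 46 in CtrlK2, and 38 and 22 in DNK1 and DNK2. The CtrlK libraries enclosed both DNK libraries, and the log2 fold change was -0.02 with a 95% interval of -2.19 to 2.16. *ccnb1*, which encodes cyclin B1, had 55 and 70 reads in CtrlK1 and CtrlK2 and 32 and 78 in DNK1 and DNK2. Here the DNK libraries lay on either side of the controls (log2 fold change -0.25, interval -1.83 to 1.33). *plk1*, a kinase of mitotic entry and spindle assembly, had 98, 72, 34 and 87 reads in CtrlK1, CtrlK2, DNK1 and DNK2. DNK2 lay between the controls and DNK1 below both (log2 fold change -0.59, interval -2.14 to 0.96). *ccna2*, which encodes cyclin A2, had 59 and 56 reads in the CtrlK libraries and 18 and 21 in the DNK libraries. Its groups did not overlap and its replicates were close, yet the adjusted p was 0.23 (log2 fold change -1.66, standard error 0.74, edgeR). *ccnb2* and *aurka*, for a second B-type cyclin and the Aurora A kinase, had log2 fold changes of -0.85 and -0.71, and neither passed the test. *cdc25b* encodes a phosphatase that activates Cdk1, and with 496, 569, 489 and 575 reads it had many more reads than most members. Its level was 20.3 ± 0.915 CPM in CtrlK and 19.0 ± 3.17 CPM in DNK (SD, n = 2 per group). The groups overlapped, and the interval of its log2 fold change (-0.09) ran from -0.60 to 0.42.

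*foxm1* encodes the transcription factor that activates many of the other genes in G2. It had 16 and 27 reads in CtrlK1 and CtrlK2, whereas DNK1 and DNK2 had 0. Against 3 reads per library, it was at least 7.51-fold lower in DNK, with an adjusted p of 0.073 in edgeR, 0.025 in DESeq2 and between 0.025 and 0.34 over all alternatives. With CtrlK1 alone it was at least 6.31-fold lower. The difference thus rests on 43 reads in the whole data set. In the RefSeq annotation of the assembly GRCz12tu, *foxm1* overlaps *rhno1* and another gene, and 11 of the 40 members overlap some gene, among them *cdk1*, *top2a*, *mki67* and *ndc80*, but not *prc1b* or *kif23*. These are overlaps of whole gene spans on either strand, whereas the reads were counted on another assembly, GRCz11, with the Ensembl annotation. Whether counted exons overlap there was not examined. The strand setting of the counting was not stated, so reads of overlapping genes may not be separated.

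The chromosome structure genes included the proliferation marker *mki67*, whose protein coats mitotic chromosomes. *mki67* had 117 reads in CtrlK1, 121 in CtrlK2, and 6 and 32 in DNK1 and DNK2. Both DNK libraries lay below both CtrlK libraries, which were nearly equal. The level was 4.55 ± 0.538 CPM in CtrlK and 0.694 ± 0.691 CPM in DNK (SD, n = 2 per group). The log2 fold change was -2.71 (standard error 0.83, interval -4.67 to -0.75), with an adjusted p of 0.095 in edgeR and 0.022 in DESeq2. When DNK2 was left out, the adjusted p in edgeR was 0.031, and over all alternatives it lay between 0.0024 and 0.29. *top2a*, which encodes topoisomerase II alpha, had 17 reads in CtrlK1, 136 in CtrlK2, and 0 and 21 in DNK1 and DNK2. CtrlK1 lay within the range of the DNK libraries and CtrlK2 far above, so the log2 fold change of -2.80 had an interval of -6.78 to 1.18 (adjusted p = 0.37, edgeR). The condensin genes *smc2*, *smc4* and *ncapg* had log2 fold changes of -0.29, -0.71 and -0.41, and the groups overlapped for all of these.

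Among the kinetochore and checkpoint genes, *ndc80*, which encodes the microtubule-binding subunit of the kinetochore, had 38 and 102 reads in CtrlK1 and CtrlK2 and 72 and 135 in DNK1 and DNK2. Its log2 fold change was 0.54 (interval -0.91 to 1.98), whereas its partner in the same complex, *nuf2*, had 7, 16, 22 and 0 reads in CtrlK1, CtrlK2, DNK1 and DNK2. *mad2l1* encodes the checkpoint protein Mad2 and had 18 and 72 reads in the CtrlK libraries against 8 and 0 in the DNK libraries. Although the groups did not overlap, the adjusted p was 0.21 (log2 fold change -3.51, standard error 1.51, edgeR). *bub1*, for a checkpoint kinase, had 22 and 17 reads in CtrlK1 and CtrlK2, 0 in DNK1 and 23 in DNK2. DNK2 was thus at the level of the controls and DNK1 had no reads. *bub1bb* showed the same absence in DNK1, with 3, 16, 0 and 12 reads. *ttk*, for the kinase Mps1, had a log2 fold change of -0.90 (adjusted p = 0.59, edgeR). Of the untested genes, *cenpf* had 70 reads in CtrlK1 but 6 in CtrlK2, and 4 and 0 in DNK1 and DNK2, and *cenpe* had 3 to 6 reads in each library.

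The chromosomal passenger complex corrects faulty attachments and later prepares cytokinesis. Its kinase gene *aurkb* had 29 and 45 reads in CtrlK1 and CtrlK2 and 48 and 17 in DNK1 and DNK2. The DNK libraries enclosed both controls (log2 fold change -0.28, interval -2.27 to 1.70). *cdca8*, which encodes the subunit borealin, had 43 and 5 reads in CtrlK1 and CtrlK2, whereas DNK1 and DNK2 had 0. Against 3 reads per library this was at least 9.28-fold lower, without a test, and at least 1.61-fold with CtrlK2 alone. *birc5a*, for survivin, had 6, 10, 0 and 7 reads in CtrlK1, CtrlK2, DNK1 and DNK2.

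For 4 of the 5 spindle genes the groups overlapped. *kif11*, which encodes the motor that separates the spindle poles, had 108 reads in CtrlK1 but 7 in CtrlK2, and 7 and 12 in DNK1 and DNK2. CtrlK1 alone set its log2 fold change of -2.79, which became 0.49 without that library. *tpx2*, an activator of Aurora A, had 43 and 26 reads in the CtrlK libraries and 9 and 11 in the DNK libraries, without overlap (log2 fold change -1.91, adjusted p = 0.30, edgeR). *nusap1*, for a protein that bundles spindle microtubules, had 40, 16, 37 and 53 reads in CtrlK1, CtrlK2, DNK1 and DNK2 (log2 fold change 0.53, interval -1.49 to 2.55). *kif2c* and *kif4*, for a microtubule depolymerase and a chromosome motor, had log2 fold changes of -0.29 and -0.36.

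The genes of the central spindle and cytokinesis held the single call. *prc1b*, 1 of 2 zebrafish copies of the gene for the protein that crosslinks the central spindle, had 112 and 29 reads in CtrlK1 and CtrlK2, whereas DNK1 and DNK2 had 0. It was at least 26.8-fold lower in DNK against 3 reads per library (adjusted p = 0.029, edgeR), and at least 9.35-fold lower with CtrlK2 alone. The adjusted p stayed under 0.05 in 6 of 6 alternative fits that tested it on all 4 libraries, but it was 0.27 without CtrlK1, 0.063 without DNK1 and 0.069 without DNK2. The other copy, *prc1a*, had 38 reads in CtrlK1, 2 in CtrlK2, and 0 and 23 in DNK1 and DNK2, so its groups overlapped (log2 fold change -0.96, interval -5.51 to 3.58). Only uniquely mapped reads were counted, so reads that the copies share are missing from both. *kif20a*, for a central spindle motor, had 61 and 15 reads in CtrlK1 and CtrlK2 and 0 and 6 in DNK1 and DNK2. Here again the groups did not overlap, and the adjusted p was 0.21 (log2 fold change -3.76, interval -7.53 to 0.02, edgeR).

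*racgap1* and *ect2* encode the GTPase-activating protein and the exchange factor that position the contractile ring. *racgap1* had 112 and 109 reads in the CtrlK libraries and 41 and 54 in the DNK libraries, and *ect2* had 75 and 107 against 52 and 40. Both were lower in each DNK library than in each CtrlK library, yet neither passed the test (log2 fold change -1.31 and -1.07, edgeR adjusted p = 0.18 and 0.29). *anln*, for the ring scaffold anillin, had the highest fold change of the list, with 40, 11, 22 and 126 reads in CtrlK1, CtrlK2, DNK1 and DNK2. DNK2 alone was high (log2 fold change 1.39, interval -1.13 to 3.92), and without DNK2 the value was -0.44. *kif23*, the partner of *racgap1* in the centralspindlin complex, had 2843 and 3625 reads in the CtrlK libraries and 3050 and 3034 in the DNK libraries. Its level was 122 ± 3.61 CPM in CtrlK and 108 ± 5.35 CPM in DNK (SD, n = 2 per group), without overlap in CPM. Its standard error of 0.11 was the smallest of the members, with the limit given above on the source of its reads, and its log2 fold change of -0.18 had an interval of -0.43 to 0.08 (adjusted p = 0.39, edgeR).

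Genes of anaphase completed the list. *ube2c*, for the ubiquitin-conjugating enzyme of the anaphase-promoting complex, had 40 and 31 reads in the CtrlK libraries and 7 and 4 in the DNK libraries. The groups did not overlap and the replicates of each were close (log2 fold change -2.79, standard error 1.03, adjusted p = 0.15, edgeR). *cdc20*, for the activator of that complex, had 19 reads in CtrlK1, 0 in CtrlK2, and 0 and 48 in DNK1 and DNK2. No direction could be read from it (log2 fold change 1.16, interval -4.28 to 6.59). *espl1*, for separase, had 37 reads in CtrlK2 and 0 in the other 3 libraries.

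The reads of the 37 scarce genes were then summed in each library. They made up 62.4 RPM in CtrlK1 (95% exact binomial interval 59.4 to 65.6), and 57.6 in CtrlK2 (54.8 to 60.4), whereas DNK1 had 24.4 (22.6 to 26.3) and DNK2 had 42.2 (39.8 to 44.7). These intervals cover counting error only. Both DNK libraries lay below both CtrlK libraries, and the group means differed by 1.80-fold (60.0 ± 3.46 and 33.3 ± 12.6, SD, n = 2 per group). The DNK libraries differed from each other by 1.73-fold, the CtrlK libraries by 1.08-fold. For all 39 genes, most of whose reads were those of *kif23*, the group means differed by 1.22-fold (199 ± 5.89 RPM in CtrlK and 164 ± 19.6 RPM in DNK). DNK2 was therefore nearer to CtrlK2 than to DNK1.

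**Figure D3:**
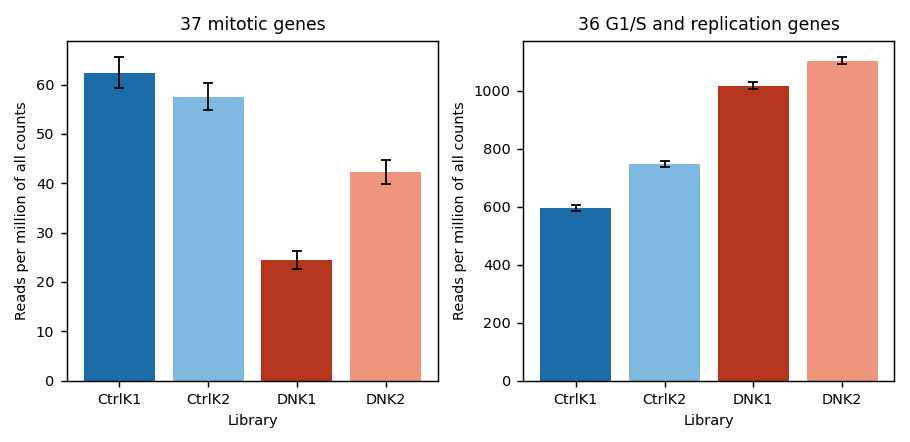
Summed reads per 1000000 counts in each library (bars, with 95% exact binomial intervals) for the 37 mitotic genes other than *kif23* and *cdc25b* (left) and for 36 G1/S and replication genes (right). The mitotic sum is lower in both DNK libraries and the replication sum higher. As a ratio, the DNK libraries differ more in the mitotic sum (1.73-fold) than in the replication sum (1.08-fold). *kif23* and *cdc25b* were set apart after the counts were seen, whereas abundant genes were kept on the right. For all 39 matched mitotic genes, the group means differed by 1.22-fold.

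The spread between replicates was examined for each gene. Between CtrlK1 and CtrlK2, 9 of the 39 genes (23.1%) differed by more than 4-fold, and between DNK1 and DNK2, 12 of 39 (30.8%) did, after 2 reads were added as a prior count. In the level range of the scarce members, the same held for 13.7% and 18.5% of the 4912 tested genes. These sets are not alike, since the 39 genes include *kif23*, *cdc25b* and 5 genes that were not tested. Of the untested genes, *cenpf*, *cdca8* and *espl1* were among the 9 in CtrlK and *birc5a* among the 12 in DNK. A wide spread also occurred in other genes at this depth, though in a smaller share of them. In CtrlK the spread had no common direction. CtrlK1 was higher for 20 genes, among them *kif11*, *cenpf* and *prc1b*, and CtrlK2 for 19, among them *top2a*, *smc2* and *mad2l1*. In DNK, DNK2 was higher for 25 genes and DNK1 for 10, and 4 genes (*foxm1*, *cdca8*, *prc1b* and *espl1*) had 0 reads in both. The largest differences within a group among tested genes were those of *cdc20* and *kif11*, followed by *bub1* and *prc1a*, which were equal.

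**Figure D4:**
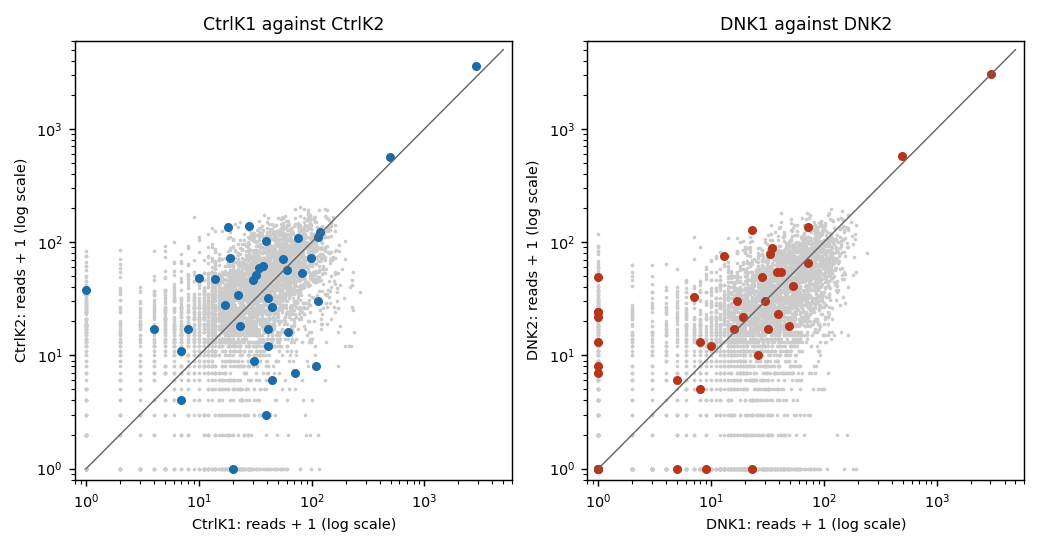
Reads plus 1 (both axes on a log scale) in the 2 CtrlK libraries (left) and the 2 DNK libraries (right) for the 39 mitotic genes (colored points) and for the 4912 tested genes in the level range of the scarce members (gray). *kif23* and *cdc25b* lie near the line of equal reads, and many other mitotic genes lie far from it in either direction.

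To place these genes among others of the cell cycle, 82 further mitotic genes were listed, of which 77 were matched and 57 tested. Of these, 2 were called, *kif15* and *gtse1*, both lower in DNK (edgeR, adjusted p under 0.05). Among all tested genes, 4.23% were called lower. The log2 fold change of the 57 genes had a median of -0.37 and was negative for 61.4% of them. The share was 51.7% of all tested genes and 56.3% of those in the level range of the scarce members. Of the 57, *gtse1*, *kif18a*, *kifc1*, *cenpl* and *ckap2l* had fewer than 10 reads in both DNK libraries. These genes were tested only through their CtrlK reads, so their negative sign followed from how they passed the filter. *kif15*, for a spindle motor, had 1872 and 2494 reads in the CtrlK libraries and 1409 and 1519 in the DNK libraries (log2 fold change -0.66, standard error 0.14). Its adjusted p was 0.030 in edgeR, 0.055 when libraries were scaled by total counts only, and 0.00070 to 0.12 over all alternatives. *gtse1*, for a G2 protein that binds microtubules, had 54 and 24 reads in the CtrlK libraries, whereas DNK1 and DNK2 had 0. Against 3 reads per library this was at least 14.5-fold lower (adjusted p = 0.043, edgeR), and at least 7.74-fold with CtrlK2 alone. Neither call held when any 1 library was left out. The sum of these 77 genes, in which abundant genes such as *kif15* were kept, did not separate the groups. It was 524 and 570 RPM in CtrlK1 and CtrlK2 and 538 and 546 in DNK1 and DNK2. Since *kif23* and *cdc25b* were left out of the sum of the 37 scarce members, these sums are not a like comparison.

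Most genes of the preceding G1/S phase had the opposite sign. Of 37 listed genes, 36 were matched and 34 tested. The log2 fold change was positive for 28, against 8284 of all 17151 tested genes. At an adjusted p under 0.05 in edgeR, 7 of the 34 were called, all of them higher in DNK, against 4.22% of all tested genes called higher. DESeq2 called 9. The number was 2 without CtrlK1 or DNK2, 4 without DNK1 and 5 without CtrlK2. The 7 genes were *ccnd1*, *ccnd2a*, *pcna*, *mcm2*, *mcm5*, *mcm6* and *dut*. *mcm2*, a subunit of the replicative helicase, had 368 and 473 reads in the CtrlK libraries and 1323 and 1174 in the DNK libraries. It rose by 1.48 on the log2 scale (standard error 0.17, adjusted p = 0.0030, edgeR). *pcna*, the sliding clamp of DNA polymerase, had 2037, 3438, 4538 and 4635 reads in CtrlK1, CtrlK2, DNK1 and DNK2. The DNK libraries were both above the controls, but the call was close to the threshold (log2 fold change 0.68, standard error 0.16, adjusted p = 0.049, edgeR). It was lost with total counts only (edgeR adjusted p = 0.052), with the size factors of DESeq2 (0.0503), with non-robust dispersions (0.066) and without CtrlK1 (0.13), DNK1 (0.11) or DNK2 (0.20). The helicase genes *mcm5* and *mcm6*, the D-type cyclin genes *ccnd1* and *ccnd2a*, and *dut*, which keeps uracil out of DNA, rose by 0.85, 1.28, 0.46, 0.59 and 0.68 on the log2 scale (adjusted p = 0.00685 to 0.0465, edgeR). In sum the 36 genes took 595 and 748 RPM in CtrlK and 1017 and 1104 in DNK. Much of this sum came from *ccnd1*, *pcna* and *dut*, with 3619, 2037 and 2714 of the 14995 reads in CtrlK1. The difference in response between the G1/S genes and the mitotic genes was not tested, and most mitotic genes were far more scarcely sampled. Among the inhibitors of cyclin-dependent kinases, 6 of 9 were matched and 4 tested. The log2 fold change was negative for 3 of the 4 and positive for 1, and 0 were called lower. It was -0.43 for *cdkn1a* and -0.70 for *cdkn2c*, and *cdkn2a/b* had 12 and 29 reads in CtrlK and 0 in DNK1 and DNK2. *cdkn1cb* had 124 and 206 reads in CtrlK and 442 and 421 in DNK, and it was called higher (log2 fold change 1.32, standard error 0.29, adjusted p = 0.035, edgeR), though not when any 1 library was left out.

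**Figure D5:**
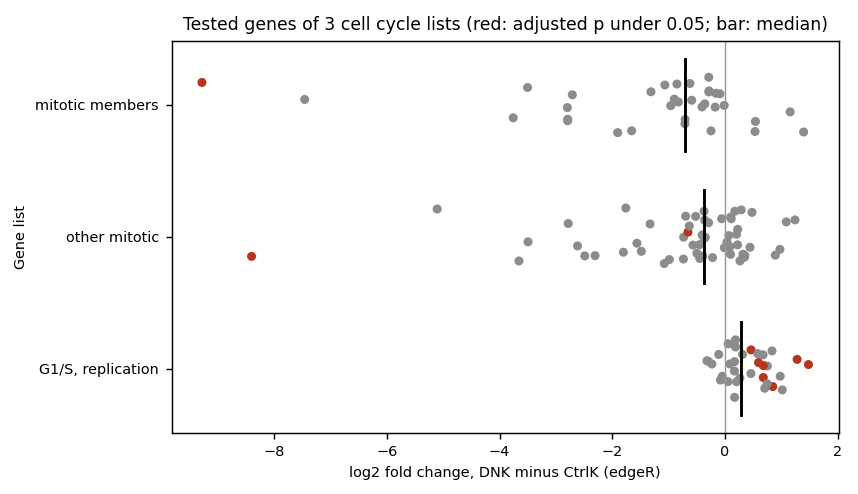
Log2 fold change of DNK minus CtrlK (x axis, edgeR) for the tested genes of 3 lists (rows): 34 mitotic members, 57 other mitotic genes and 34 G1/S and replication genes. The medians (bars) are -0.71, -0.37 and 0.29, and red points have an adjusted p under 0.05.

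Genes of other cell types also differed between the libraries. Their calls stand beside 4.23% of all tested genes called lower and 4.22% called higher (edgeR, adjusted p under 0.05). The 5 erythrocyte markers together took 47.9 to 186 RPM in CtrlK and 3.41 to 14.7 in DNK, with 1 of 4 tested genes called lower. The 3 thrombocyte markers took 7.78 to 17.8 in CtrlK and 1.13 to 1.74 in DNK, and all 3 were called lower, with *itga2b* at 0 in both DNK libraries. The 9 cardiomyocyte markers took 5025 to 14265 RPM in CtrlK and 706 to 1866 in DNK. All 9 were lower in both DNK libraries than in both CtrlK libraries, against 28.6% of all tested genes. Of these 9, 0 were called, and 8 differed by more than 4-fold between DNK1 and DNK2. Without a filter on low reads, all 9 passed in edgeR, with an adjusted p of 1.1e-14 (*tpm4a*) or less. That fit called 7.35% of 24155 genes lower. The 5 mural markers took 111 to 123 RPM in CtrlK and 40.1 to 42.0 in DNK, with 2 called lower. The 15 leukocyte markers overlapped in sum (1731 to 1882 in CtrlK and 1675 to 1920 in DNK), although 5 of 13 tested genes were called lower and the neutrophil gene *mpx* was at 0 in both DNK libraries. Most of this sum was *cd74a* (log2 fold change -0.03), with 28660 of the 43611 reads in CtrlK1 and 32781 of 44567 in DNK2. The log2 fold change was negative for 10 of the 13 tested leukocyte markers and positive for 3. The leukocyte markers *lyz* and *pax5* were at 0 in every library. The 8 epicardium and fibroblast markers were higher in sum in DNK (2171 to 2358) than in CtrlK (1611 to 1873), with *col1a2* and *pdgfra* called higher. Apart from *wt1b* (log2 fold change 0.88), their other members did not follow the sum, since 5 of the 8 had a negative value. Of these, *tcf21* had 19 and 56 reads in CtrlK and 14 and 0 in DNK, *tbx18* had 47 and 62 against 0 and 4, and *postnb* had 818 and 18 against 1 and 0. The part of these cell types in the lower mitotic sum of DNK was not tested.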

How the data were processed

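The deposited counts are whole numbers of reads per Ensembl gene, 1 file per library, without normalization. Per the methods and the submitters' processing notes, the authors checked reads with FastQC 0.11.9, mapped them with HISAT2 2.2.1 to GRCz11 and counted uniquely mapped reads on the Ensembl release 103 annotation with featureCounts 2.0.1. The study's FPKM filter and DESeq2 test were replaced here by filterByExpr and by the quasi-likelihood test of edgeR 4.0.16 (TMM, robust glmQLFit, group as the only term, R 4.3.3), since FPKM needs exon lengths, which were not used here. Alternatives were DESeq2 1.42.0, its size factors, total counts only, no filter, at least 10 reads in every library, non-robust dispersions, a replicate block and each library left out. Figures were made with matplotlib 3.10.9. Standard errors are the log2 fold change divided by the square root of F. The test was checked on data simulated for all tested genes, with the spread between libraries set by the level of a gene alone. This does not show how the test performs for the scarce members.

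Symbols came from a table of gene IDs, ignoring case (35 genes), from the study's supplementary table (*prc1b*), and by elimination between copies or as the only zebrafish gene of that name (*prc1a*, *birc5a* and *kif4*). The members and lists were chosen with earlier results of these data known. Members given with every library's value were the called ones, *mki67*, *cdk1*, *ccnb1*, *top2a*, *aurkb*, *plk1* and *foxm1*, those with the 5 highest and 5 lowest log2 fold changes, and the 3 with the largest differences within a group (4 with a tie). The others given so were named after their values were seen. In the other cell cycle lists, every called gene was named. The cell type marker lists were given mainly by their sums and numbers of calls, and not every called marker was named. Promoter motifs, planned at first, were not analysed here.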

Additional observations from a re-analysis of the deposited data

How the results depend on the processing

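With 2 libraries per group and at most 138 reads per library for 37 of the 39 members, only large differences could pass a test. The number of members called lower was 1, and it was 3 with DESeq2. Without a filter on low reads it was 7 of 39 (*prc1b*, *foxm1*, *mki67*, *top2a*, *kif11*, *cenpf* and *cdca8*). That fit called 7.35% of 24155 genes lower and 5.44% higher. With at least 10 reads in every library it was 0, a filter that leaves 18 members and removes those at 0. Of the 14320 genes under that filter, 6.03% were called lower and 5.87% higher. The number of members called higher was 0 under all alternatives run. Over all genes, DESeq2 called 1271 higher and 1432 lower and the fit without a filter 1315 and 1775, against 723 and 726, and with each library left out 354 to 425 were higher and 328 to 567 lower. The other mitotic genes had 2 calls, against 3 with DESeq2 and 4 without a filter. They had 1 with total counts only, 1 with at least 10 reads in every library and 1 with the replicate block. The G1/S genes had 7 calls, 6 with the size factors of DESeq2 or total counts only, and 4 with non-robust dispersions. They had 9 with DESeq2, without a filter, with at least 10 reads in every library and with the replicate block. The kinase inhibitors had 1 call, and 2 with DESeq2 or without a filter. With each library left out, calls ranged from 0 to 1 for members lower, were 0 for the other mitotic genes and for the kinase inhibitors, and ranged from 2 to 5 for the G1/S genes. The replicate numbers are shared by label only, and across all tested genes the differences between replicates 1 and 2 of CtrlK and of DNK correlated at 0.090. The replicate number as a block changed the call of *gtse1* only among the single genes refitted (adjusted p = 0.065), and members called lower stayed at 1. The log2 fold change of *cdk1* turned to 0.038 with total counts only and to 0.13 with the replicate block. With each library left out, it ranged from -0.58 to 0.95 for *cdk1*, -1.10 to 0.29 for *ccnb1*, -1.14 to 0.25 for *aurkb*, -7.38 to 0.17 for *bub1*, -3.72 to 0.49 for *kif11*, -0.061 to 1.54 for *nusap1*, -0.44 to 2.82 for *anln*, -7.51 to 2.55 for *prc1a*, -6.45 to 7.66 for *cdc20* and -0.054 to 1.22 for *ndc80*. The sign also turned for *ccnb2*, *cdc25b*, *smc2*, *smc4*, *nuf2*, *bub1bb*, *kif2c* and *kif4*, so that 18 of the 34 tested members turned. The median of the members was -0.30 with at least 10 reads in every library (18 members) and lay between -1.01 and -0.64 under the others with all libraries. The causes of these changes were not tested, except that a stricter filter tests fewer genes.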
